A study of Mus musculus with 24 samples.

Results

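The genes described here are 42 genes of the cell cycle, 22 that act in DNA replication and 20 that act in mitosis, out of 38887 genes counted in mouse dendritic cells. They were chosen by name from known roles, not by a cut on their levels, but with earlier results of these data known. All 42 passed the filter on low counts. Dendritic cells, the immune cells that take up microbes and present their antigens, had been grown from bone marrow of mice that were wild type (WT) or labelled knockout (KO) for IRE1, the endoplasmic reticulum stress sensor IRE1α encoded by Ern1. Cells of each genotype were untreated, treated with Zymosan, a yeast cell wall preparation, or treated with lipopolysaccharide (LPS), a bacterial cell wall component. The 6 groups (WT untreated, WT Zymosan, WT LPS, KO untreated, KO Zymosan and KO LPS) had 4 replicates each, 24 RNA sequencing samples in all. The labels give no strain, age, dose or time of treatment, and do not say which promoter or cell type drove the deletion or whether replicates were separate mice or cultures, so the p-values measure the spread between these samples, which may be technical.

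A cell copies its DNA once per division. Before the S phase, CDC6 and CDT1 load the MCM2 to MCM7 helicase onto origins of replication. At the start of S phase CDC45 and the GINS complex activate that helicase, DNA polymerase alpha with its primase lays down primers, and PCNA, a ring loaded by the RFC complex, holds the polymerases on DNA. Ribonucleotide reductase and thymidylate synthase supply the nucleotides. Mitosis is driven by the kinase CDK1 with cyclins A and B, by Polo-like and Aurora kinases, and by kinesin motors and kinetochore proteins that move chromosomes, and it ends when the anaphase-promoting complex with CDC20 destroys the cyclins. Replication genes are known targets of E2F factors, and many mitosis genes are known targets of the DREAM complex and of FOXM1 with MYBL2. In cultures of bone marrow, progenitors divide while mature dendritic cells mostly do not, and stimulation by microbial products is known to mature them.

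Library totals were 32223256 to 46927434 counts, and the count of a single gene among the 42 ranged from 20 (Ung) to 11679 (Pcna) per sample. In every comparison 14188 genes were tested. Itgax, which encodes the dendritic cell integrin CD11c, was at 1129 to 1244 CPM (counts scaled to libraries of equal size) in WT untreated samples. Flt3, another of the 7 dendritic cell markers listed, was at 1.9 to 2.21 CPM in the same samples. Ern1 itself was at 40.2 to 43.3 CPM in WT untreated samples and 48.2 to 54.6 CPM in untreated samples labelled KO. In stimulated samples it was at 27.1 to 30.7 CPM in WT and at 35.6 to 41.8 CPM in KO. A count over the whole gene checks nothing about a deletion of part of it, so the samples are called labelled KO or KO by their label alone. Replicates 1 and 2 of a group, and replicates 3 and 4, resembled each other more than they resembled the other pair, except in WT LPS, where replicate 3 was closer to replicate 2 than to replicate 4. The chi-square per gene between libraries, which is near 1 for counting noise alone, had a median of 4.03 over these 12 pairs of libraries and of 15.3 over the other 24. Each such pair was also summed to 1 sample, and the counts of calls in that setting stand beside the comparisons of genotypes. That setting was examined gene by gene only for the 42 genes, so calls of other single genes were not checked in it.

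E2F and DREAM are known to act through short sequences near the start sites of such genes, so the bases before the start of 7 genes are shown first, to let the classes be compared: 3 replication genes that fell, 1 that rose (Tyms) and 3 mitosis genes that fell. They are examples, and the letters do not sort the genes by direction: Rfc3, which also rose, holds all 3 kinds in its window of 300 bases, Mki67, which rose with Zymosan, holds CHR and CCAAT letters, and Ung, which fell, holds none. Each line gives the 150 bases 5′ of the annotated start in the direction of transcription, from RefSeq on GRCm38.p6. Capitals mark letters searched for on both strands: TTTCCCGC, TTTGGCGC or GGCGGGAA (letters of the E2F type), TTTGAA or TTCGAA (letters of the cell cycle homology region, CHR) and CCAAT (the NF-Y box), or their reverse complements. TTTCCCGC and the reverse complement of GGCGGGAA can overlap, and TTCGAA reads the same on both strands.
Mcm6 (chr1:128359706-128359855, minus strand): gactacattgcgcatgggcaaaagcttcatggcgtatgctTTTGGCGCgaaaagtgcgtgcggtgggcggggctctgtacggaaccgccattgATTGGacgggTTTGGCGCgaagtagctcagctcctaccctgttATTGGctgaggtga
Rrm1 (chr7:102441545-102441694, plus strand): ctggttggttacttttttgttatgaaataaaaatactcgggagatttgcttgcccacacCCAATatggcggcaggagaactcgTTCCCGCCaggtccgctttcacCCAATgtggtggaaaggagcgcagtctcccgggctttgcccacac
Pola1 (chrX:93632156-93632305, minus strand): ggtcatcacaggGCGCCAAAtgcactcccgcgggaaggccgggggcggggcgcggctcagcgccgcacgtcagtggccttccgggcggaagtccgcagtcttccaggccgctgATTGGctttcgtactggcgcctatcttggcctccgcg
Tyms (chr5:30073626-30073775, minus strand): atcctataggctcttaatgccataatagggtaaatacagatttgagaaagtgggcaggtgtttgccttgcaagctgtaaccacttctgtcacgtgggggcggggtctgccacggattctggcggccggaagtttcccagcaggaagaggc
Cdc20 (chr4:118437344-118437493, minus strand): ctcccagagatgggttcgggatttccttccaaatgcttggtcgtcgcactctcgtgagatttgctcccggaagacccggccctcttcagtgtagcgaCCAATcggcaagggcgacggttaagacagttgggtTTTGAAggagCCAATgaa
Cdk1 (chr10:69352913-69353062, minus strand): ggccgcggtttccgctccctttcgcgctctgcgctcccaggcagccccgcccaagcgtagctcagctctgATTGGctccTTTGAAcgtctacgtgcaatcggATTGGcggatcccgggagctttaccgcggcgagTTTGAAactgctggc
Kif11 (chr19:37376232-37376381, plus strand): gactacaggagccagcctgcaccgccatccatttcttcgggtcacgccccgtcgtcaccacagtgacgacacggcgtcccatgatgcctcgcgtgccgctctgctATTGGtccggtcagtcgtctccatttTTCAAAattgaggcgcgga

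Mcm6 holds the TTTGGCGC letters at 2 positions, -110 and -47 from the start, and Rrm1 and Pola1 hold letters of the E2F type at -67 and -138. Cdc20, Cdk1 and Kif11 hold CHR letters close to the start, at -18, at -71 and -15, and at -19, with a CCAAT box within the same stretch. None of the letters is present in the Tyms window. In the RefSeq windows of 300 bases (250 before and 50 after the start), available for 34 of the 42 genes, letters of the E2F type were in 11 of 18 replication genes (61.1%, exact 95% interval 35.7% to 82.7%) and in 0 of 16 mitosis genes (upper limit 20.6%), against 4.24% of 17492 protein-coding genes. CHR letters were in 12 of 16 mitosis genes (75.0%, interval 47.6% to 92.7%) and in 4 of 18 replication genes (22.2%), against 18.2% of protein-coding genes. CCAAT was in 14 of 18 replication genes (77.8%) and 14 of 16 mitosis genes (87.5%), against 39.0%. With only the 250 bases before the start, 8 replication genes held E2F letters (44.4%) and 7 mitosis genes held CHR letters (43.8%), against 3.58% and 16.4% of protein-coding genes, and CHR letters were in 22.2% of replication genes. These are matches of letters, not measured binding.

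**Figure D1:**
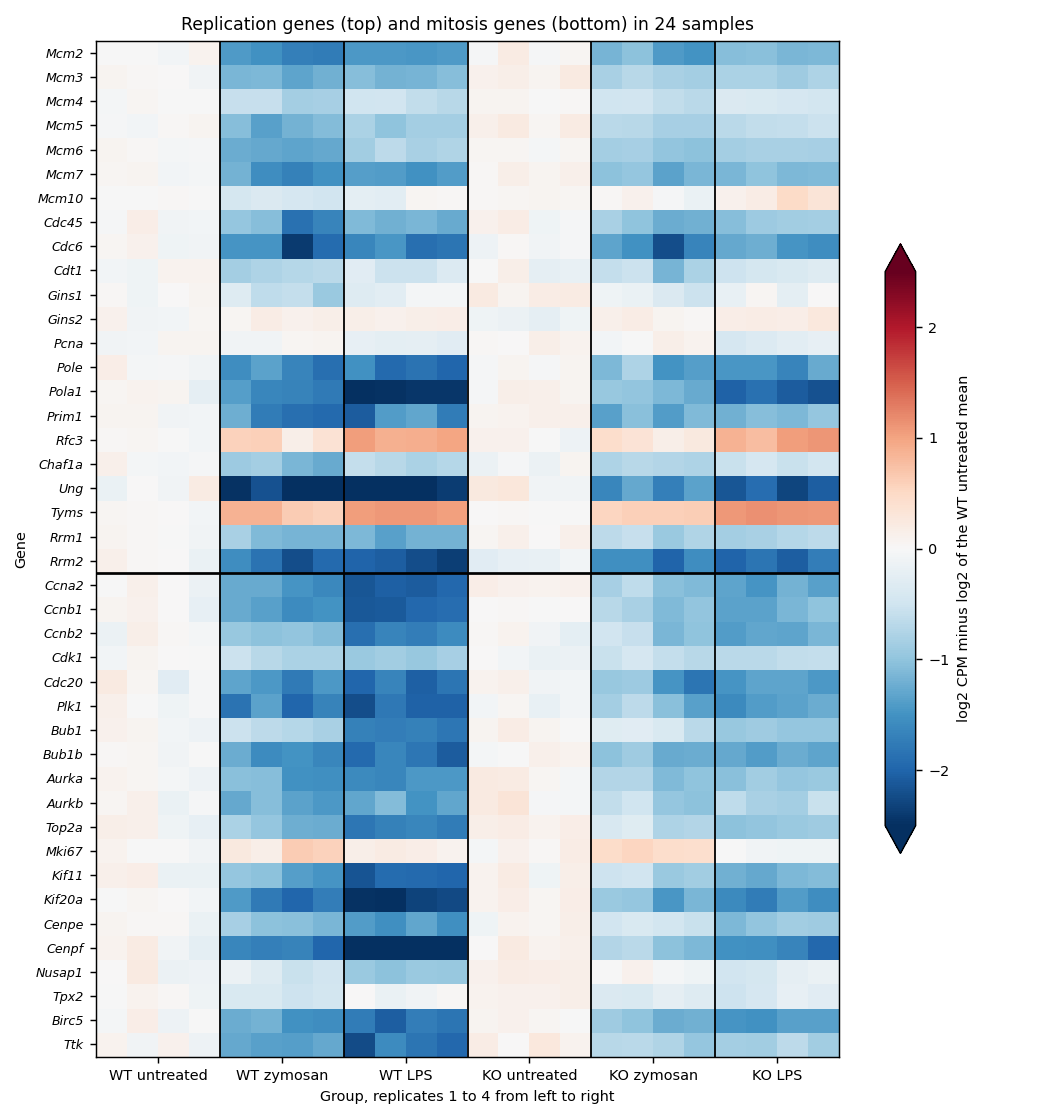
Level of each of the 42 genes (rows) in each of the 24 samples (columns, 4 replicates per group), as log2 CPM minus the log2 of the WT untreated mean; colours saturate at the ends of the scale. Most rows turn blue in Zymosan and LPS samples of both genotypes, Tyms and Rfc3 turn red, and the blue of the mitosis genes is paler in KO LPS than in WT LPS samples.

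Both stimuli lowered most of these genes in WT cells. With Zymosan 18 of 22 replication genes and 19 of 20 mitosis genes fell, with medians of -1.18 and -1.27 on the log2 scale, against a median of -0.01 over all genes tested, of which 35.9% were called lower and 34.3% higher. With LPS 17 replication genes and 18 mitosis genes fell, with medians of -1.0 and -1.78, against -0.04 over all genes, of which 39.7% were called lower and 35.9% higher. The same untreated samples serve in both comparisons. A gene was called at an edgeR adjusted p under 0.05, and each log2 fold change below has its standard error (SE) and rests on 4 samples per group. In bulk RNA, fewer dividing cells and less of these mRNAs per cell cannot be told apart. The summed level of the 22 replication genes was 637.2 ± 4.51 CPM (SD, n = 4) in WT untreated, 439.5 ± 7.66 CPM in WT Zymosan and 438.3 ± 6.37 CPM in WT LPS samples. The summed level of the 20 mitosis genes was 491.4 ± 30.6, 338.3 ± 13.8 and 264.8 ± 5.59 CPM in the same groups. Single genes weigh heavily on both sums. Mki67 alone had means of 118.5, 157.7 and 131.7 CPM in these groups, and Pcna of 204.8, 202.8 and 173.4 CPM. The sums therefore do not give the change of a typical gene.

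The helicase genes fell together. Mcm2, a subunit of the MCM helicase (ENSMUSG00000002870, chromosome 6, 88883474 to 88898780, minus strand on GRCm38), was at 26.5, 26.4, 25.3 and 28.3 CPM in WT untreated samples, 10, 9.27, 8.14 and 7.9 CPM with Zymosan and 9.91, 9.85, 9.68 and 10 CPM with LPS. Every stimulated sample was below every untreated one, by -1.60 ± 0.08 with Zymosan and -1.43 ± 0.08 with LPS (log2 ± SE, edgeR adjusted p = 5e-15 and 2.01e-14). Mcm3, Mcm4, Mcm5, Mcm6 and Mcm7, the other subunits, had log2 changes of -1.20, -0.70, -1.17, -1.28 and -1.48 with Zymosan and of -1.12, -0.57, -0.88, -0.77 and -1.42 with LPS, and all were called. Mcm4 had the smallest fitted fall of the 6 under both stimuli. Mcm6 showed the widest gap between stimuli, 19.7, 19.2, 18.6 and 19.2 CPM with Zymosan and 25.6, 29.7, 26.4 and 27.5 CPM with LPS, a log2 difference of -0.51 ± 0.05 (Zymosan over LPS, edgeR adjusted p = 8.71e-09).

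The loading factor Cdc6 went from 7.39, 7.69, 6.62 and 6.7 CPM untreated to 2.56, 2.55, 1.35 and 1.86 CPM with Zymosan and 2.28, 2.6, 1.92 and 2.01 CPM with LPS, without overlap. Its log2 changes were -1.77 ± 0.15 and -1.69 ± 0.15. Its partner Cdt1 fell less, by -0.75 ± 0.10 with Zymosan and -0.42 ± 0.10 with LPS. Cdc45, which activates the loaded helicase, changed by -1.35 ± 0.13 and -1.17 ± 0.13. Mcm10, another activation factor, and Gins1, a GINS subunit, fell with Zymosan (-0.42 ± 0.08 and -0.62 ± 0.12) and did not pass with LPS (-0.10 ± 0.08 and -0.17 ± 0.11, edgeR adjusted p = 0.267 and 0.194). Gins2, a further GINS subunit, had 0.13 ± 0.05 and 0.15 ± 0.05. Gins2 shares 67.3% of its exon bases with Gse1 on the opposite strand, and since it is not stated whether counting used strand, reads of the pair cannot be told apart. The call of Gins2 with Zymosan ended with no filter on low counts (adjusted p = 0.07), with only the groups compared (0.0532), with pairs of replicates summed (0.0523), without WT untreated replicate 2 (0.0758) or 3 (0.0679), and without WT Zymosan replicate 2 (0.0648).

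Among the polymerases, Pola1, the catalytic subunit of DNA polymerase alpha, was at 14.3, 14.8, 14.6 and 11.9 CPM untreated, 5.36, 4.51, 4.38 and 4.06 CPM with Zymosan and 2.28, 2.52, 2.56 and 2.56 CPM with LPS. The 3 groups did not overlap, and the LPS samples lay lowest, 0.88 ± 0.11 apart from Zymosan (Zymosan over LPS, edgeR adjusted p = 2.18e-07). Pole, the catalytic subunit of polymerase epsilon, and Prim1, the primase, fell by -1.59 and -1.68 with Zymosan and by -1.81 and -1.59 with LPS. Pcna, the sliding clamp, stood at 193.1, 195.2, 214.9 and 216.1 CPM untreated and 193.3, 191.6, 210.7 and 215.6 CPM with Zymosan, a log2 difference of -0.01 ± 0.06 that did not pass (edgeR adjusted p = 0.835). With LPS it was at 177.2, 172.9, 175.1 and 168.2 CPM and fell by -0.24 ± 0.06. Chaf1a, the large subunit of the chromatin assembly factor that follows the fork, fell by -1.03 ± 0.07 and -0.70 ± 0.07, with 52.5% of its exon bases shared with Ubxn6 on the opposite strand.

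Rfc3, a subunit of the loader that opens the PCNA ring, went the other way. It was at 8.32, 8.4, 8.13 and 7.74 CPM untreated, 12.1, 12.3, 9.03 and 10.4 CPM with Zymosan and 16.7, 15.1, 15.2 and 16.1 CPM with LPS. It rose by 0.43 ± 0.09 and 0.95 ± 0.09 (edgeR adjusted p = 0.000142 and 2.69e-10). Tyms, thymidylate synthase, which makes the thymidine nucleotide (ENSMUSG00000025747, chromosome 5, 30058202 to 30073617, minus strand), was at 15.8, 15.5, 15.3 and 14.5 CPM untreated, 28.0, 27.9, 23.6 and 22.8 CPM with Zymosan and 31.7, 32.5, 32.3 and 31 CPM with LPS. All stimulated samples were above all untreated ones, and the rise was 0.74 ± 0.05 with Zymosan and 1.06 ± 0.05 with LPS (edgeR adjusted p = 4.19e-12 and 1.7e-15). The 2 ribonucleotide reductase genes, which act in the same supply of nucleotides, fell: Rrm1 by -1.06 ± 0.07 and -1.21 ± 0.07, and Rrm2, the subunit tied to S phase, by -1.87 ± 0.11 and -2.15 ± 0.11. Ung, the uracil DNA glycosylase that removes uracil from DNA, had the largest fall of the replication genes in both comparisons, from 3.16, 3.56, 3.3 and 4.08 CPM untreated to 0.632, 0.776, 0.622 and 0.579 CPM with Zymosan and 0.599, 0.616, 0.518 and 0.68 CPM with LPS. Its log2 changes were -2.43 ± 0.14 and -2.54 ± 0.14, on counts as low as 20 per sample.

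**Figure D2:**
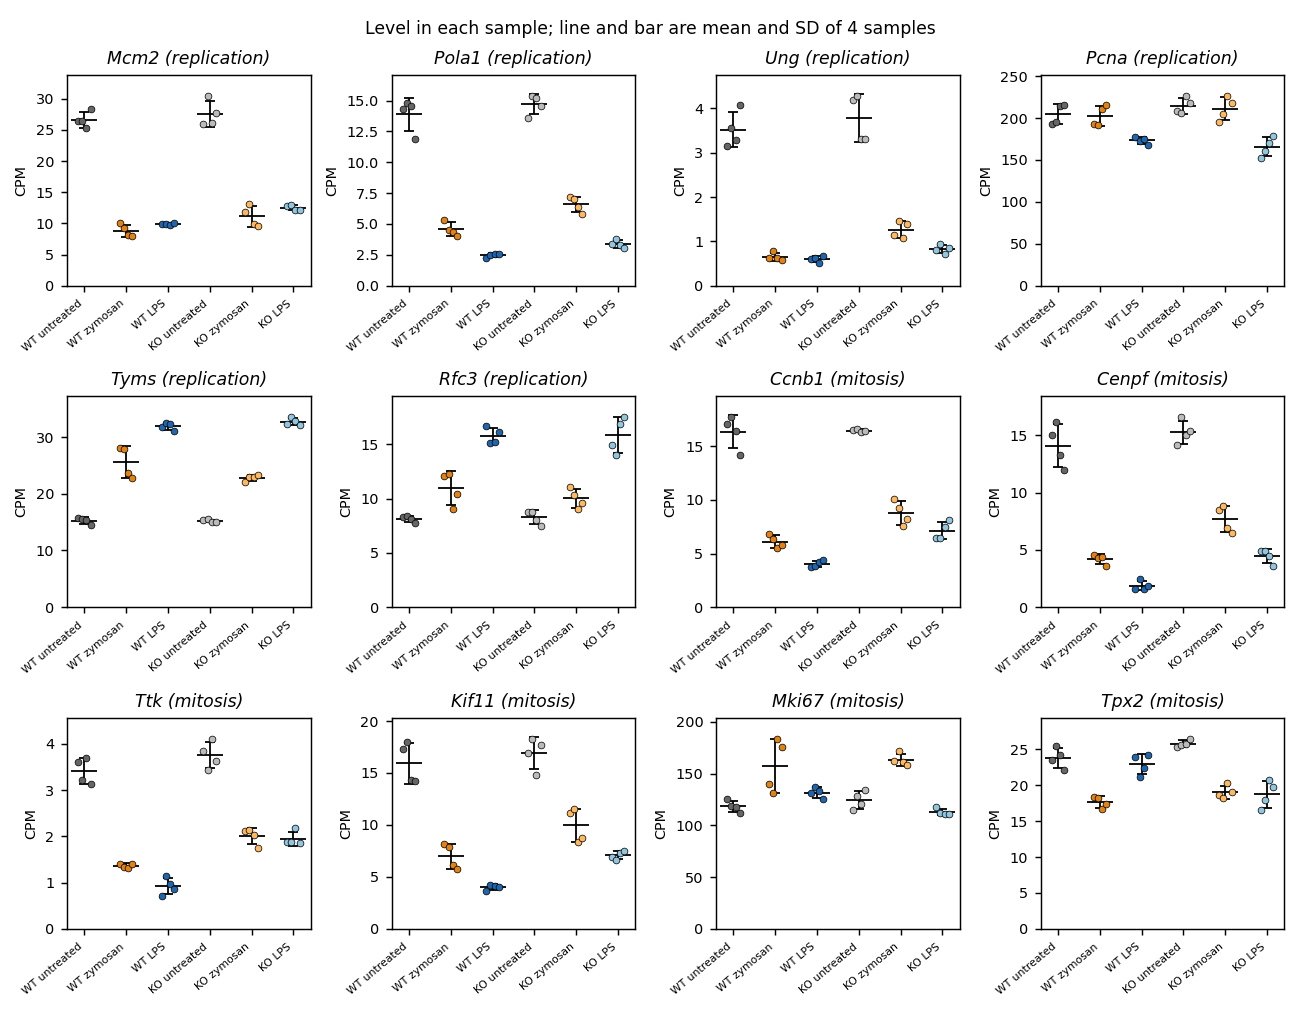
CPM of 12 of the genes in each sample by group (horizontal axis), with the mean (line) and SD (bar) of 4 samples; vertical axes start at 0. Mcm2, Pola1, Ung, Ccnb1, Cenpf, Ttk and Kif11 are lower in all stimulated than in all untreated samples of the same genotype, Tyms and Rfc3 are higher, and Pcna, Mki67 and Tpx2 show their departures from both patterns.

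The cyclins and kinases of mitosis fell with both stimuli. Ccnb1, cyclin B1 (ENSMUSG00000041431, chromosome 13, 100778650 to 100786570, minus strand), was at 17.1, 17.7, 16.4 and 14.2 CPM in WT untreated samples, 6.83, 6.34, 5.51 and 5.79 CPM with Zymosan and 3.77, 3.8, 4.19 and 4.38 CPM with LPS. The 3 groups did not overlap, and the changes were -1.42 ± 0.09 and -2.01 ± 0.09 (edgeR adjusted p = 2.85e-13 and 4.03e-16). Ccna2 and Ccnb2, cyclins A2 and B2, changed by -1.40 and -1.01 with Zymosan and by -2.05 and -1.71 with LPS. A pseudogene copy, Ccnb2-ps, had 3 to 29 counts per sample, 3.69% of the counts of Ccnb2, and reads could be split between the copies. Cdk1, the kinase these cyclins activate, fell less, by -0.70 ± 0.06 and -0.89 ± 0.06. Plk1, the Polo-like kinase of entry into mitosis, had -1.68 ± 0.12 and -2.0 ± 0.13. The Aurora kinases Aurka and Aurkb and the survivin gene Birc5, whose product sits with Aurora B in the chromosomal passenger complex, had falls of -1.27, -1.27 and -1.36 with Zymosan and of -1.51, -1.29 and -1.84 with LPS. Aurkb was the mitosis gene whose levels were most alike under the stimuli, 4.49, 5.23, 4.3 and 4.03 CPM with Zymosan and 4.46, 5.14, 3.88 and 4.41 CPM with LPS.

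Genes of the spindle checkpoint fell by unequal amounts under Zymosan. Bub1, a checkpoint kinase, was at 29.9, 29.3, 26.7 and 25.6 CPM untreated, 19.2, 17.6, 17.0 and 16.0 CPM with Zymosan and 8.63, 8.46, 8.67 and 7.94 CPM with LPS, changes of -0.68 ± 0.07 and -1.72 ± 0.08. Its relative Bub1b, BUBR1, changed by -1.48 ± 0.08 and -1.86 ± 0.09, and Ttk, the MPS1 kinase at the top of the checkpoint, by -1.31 ± 0.11 and -1.87 ± 0.12. Cdc20, the target of the checkpoint, changed by -1.47 ± 0.14 and -1.87 ± 0.15.

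The largest fall of all 42 genes was that of Cenpf with LPS. Cenpf, a large kinetochore protein of late G2 and mitosis (ENSMUSG00000026605, chromosome 1, 189640606 to 189688086, minus strand), was at 15, 16.2, 13.3 and 12 CPM untreated, 4.58, 4.31, 4.41 and 3.57 CPM with Zymosan and 1.56, 2.44, 1.61 and 1.85 CPM with LPS. Its changes were -1.75 ± 0.12 and -2.92 ± 0.13 (edgeR adjusted p = 1.52e-12 and 3.4e-16). The kinetochore motor Cenpe had -1.01 ± 0.07 and -1.44 ± 0.08. Kif11, the kinesin that pushes spindle poles apart, changed by -1.20 ± 0.11 and -1.99 ± 0.12, and Kif20a, a kinesin of cytokinesis, by -1.72 ± 0.10 and -2.40 ± 0.11, with 29.3% of its exon bases shared with Cdc23 on the opposite strand. Top2a, the topoisomerase that untangles sister chromosomes, went from 88.9, 87.1, 74.5 and 69.0 CPM untreated to 46.3, 41.1, 34.4 and 33.8 CPM with Zymosan and 22.8, 24.9, 25.8 and 23.8 CPM with LPS. Nusap1, a spindle protein, fell by -0.37 ± 0.08 and -0.96 ± 0.09.

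Mki67 and Tpx2 departed from the rest. Mki67, which encodes Ki-67, the protein stained to mark dividing cells (ENSMUSG00000031004, chromosome 7, 135689784 to 135716361, minus strand), was at 125.5, 118.3, 118.1 and 112.1 CPM untreated, 139.9, 130.9, 183.8 and 176.2 CPM with Zymosan and 131.1, 137.2, 133.2 and 125.3 CPM with LPS. It rose with Zymosan by 0.41 ± 0.07 (edgeR adjusted p = 2.68e-05), and with LPS its difference of 0.15 ± 0.08 did not pass (adjusted p = 0.0691). Mki67 was called higher with LPS by DESeq2 (0.0199), with its size factors (0.0246), with only the groups compared (0.00372), within replicates 1 and 2 (0.0253) and 3 and 4 (0.00734), and when WT untreated replicate 1 (0.0493) was left out, or either of WT Zymosan replicates 2 (0.0325) and 3 (0.0396). The Zymosan samples split by pair, with replicates 1 and 2 below replicates 3 and 4, but all 4 were above all 4 untreated samples. Tpx2, which activates Aurora A on the spindle, fell with Zymosan by -0.43 ± 0.06 and was at 24, 21.2, 22.4 and 24.2 CPM with LPS against 23.6, 25.5, 24.2 and 22.1 CPM untreated, a difference of -0.06 ± 0.06 that did not pass (adjusted p = 0.378). Per kilobase of merged exons, Mki67 was the mitosis gene of highest level in WT untreated samples, 11.8 ± 0.545 CPM per kilobase (SD, n = 4), and Ttk the lowest at 0.692 ± 0.0574. Among replication genes on the same scale, Pcna was highest at 85.3 ± 5.15 and Ung lowest at 0.645 ± 0.074, around a median of 2.85 for the class.

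**Figure D3:**
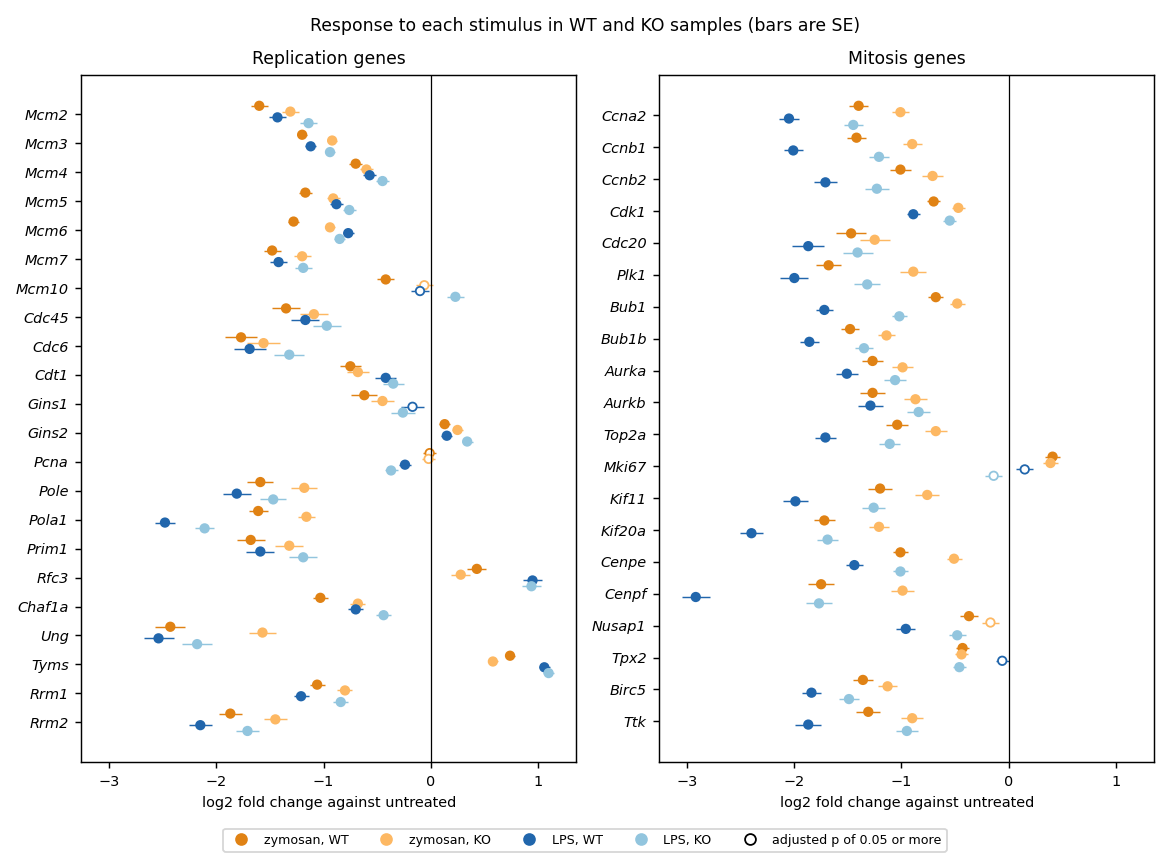
Log2 fold change against untreated samples of the same genotype (horizontal axis) for each replication gene (left) and mitosis gene (right), with SE bars; filled points passed the edgeR test. Most points lie left of 0, KO points (pale) lie mostly to the right of WT points (dark), and the LPS points of the mitosis genes lie mostly left of the Zymosan points.

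In the direct comparison of the stimuli in WT cells, replication and mitosis genes differed in pattern. Of the mitosis genes 15 of 20 were higher with Zymosan than with LPS and 1, Tpx2, was lower (-0.37 ± 0.06), with a median of 0.51. Over all genes 24.5% were called higher with Zymosan and 21.9% lower. Of the replication genes 2 of 22 were higher, Pola1 and Pcna, and 8 were lower, with a median of -0.11. Summed pairs ended the calls of Pcna (adjusted p = 0.0662), Cdt1 (0.0996), Mcm10 (0.0609), Cdk1 (0.119) and Mki67 (0.0935). The call of Cdt1 also ended without WT LPS replicate 1 (0.0518), and that of Cdk1 without WT LPS replicate 3 (0.0501) or WT Zymosan replicate 1 (0.0965). The largest differences were in Cenpf (1.17 ± 0.15) and Bub1 (1.05 ± 0.08), which lay higher with Zymosan. The doses and times of the treatments are not given, so the comparison is of these samples, not of matched doses.

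Cells labelled KO showed the same direction in most of the genes. With Zymosan 17 replication genes and 18 mitosis genes fell, with medians of -0.91 and -0.88, and over all genes 35.2% were called lower and 31.6% higher. With LPS 18 and 19 fell, with medians of -0.84 and -1.16, and over all genes 37.4% were called lower and 34.4% higher. Tyms rose by 0.58 ± 0.05 and 1.10 ± 0.05, and Rfc3 by 0.28 ± 0.09 and 0.94 ± 0.09. The call of Rfc3 with Zymosan ended with summed pairs (adjusted p = 0.0698). Mcm10 rose with LPS in KO samples (0.23 ± 0.08, edgeR adjusted p = 0.00822), which summed pairs did not keep (0.0878) and which was also lost without KO LPS replicate 3 (0.061). The fall of Gins1 with LPS in KO samples ended with DESeq2 (adjusted p = 0.0909) and summed pairs (0.153), among other settings. Nusap1 did not pass with Zymosan (-0.17 ± 0.08, adjusted p = 0.0642) but did with replicate number as a block nested in genotype (0.0475). Mki67 rose with Zymosan (0.39 ± 0.07), and its difference with LPS was -0.14 ± 0.08 and did not pass. Tpx2, which did not pass with LPS in WT, fell with LPS in KO samples (-0.46 ± 0.06). Zymosan over LPS in KO samples gave 14 mitosis genes higher and 0 lower (0 at an unadjusted p under 0.05 and 0 with DESeq2), and 3 replication genes higher and 6 lower, while over all genes 22.7% were called higher and 20.0% lower. With summed pairs 9 mitosis genes were higher and 2 replication genes lower, and the calls of Birc5, Nusap1, Plk1, Bub1b, Ccnb1, Chaf1a, Cdt1, Mcm4 and Mcm10 ended (adjusted p = 0.0667 to 0.234).

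The responses of the 42 genes in WT and KO samples, which share no library, were closely correlated. Across the 42 genes, Pearson's r between the WT and KO log2 responses was 0.97 for Zymosan and 0.96 for LPS, given as a description because genes are not independent replicates. The slope of the KO on the WT response, from a line with a free intercept, was 0.74 for each stimulus over both classes. For LPS it was 0.87 over replication genes and 0.55 over mitosis genes, and for Zymosan 0.77 and 0.70. Of the 38 genes with a negative LPS response in WT, 34 were less negative in KO, and of the 38 with a negative Zymosan response, 36.

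**Figure D4:**
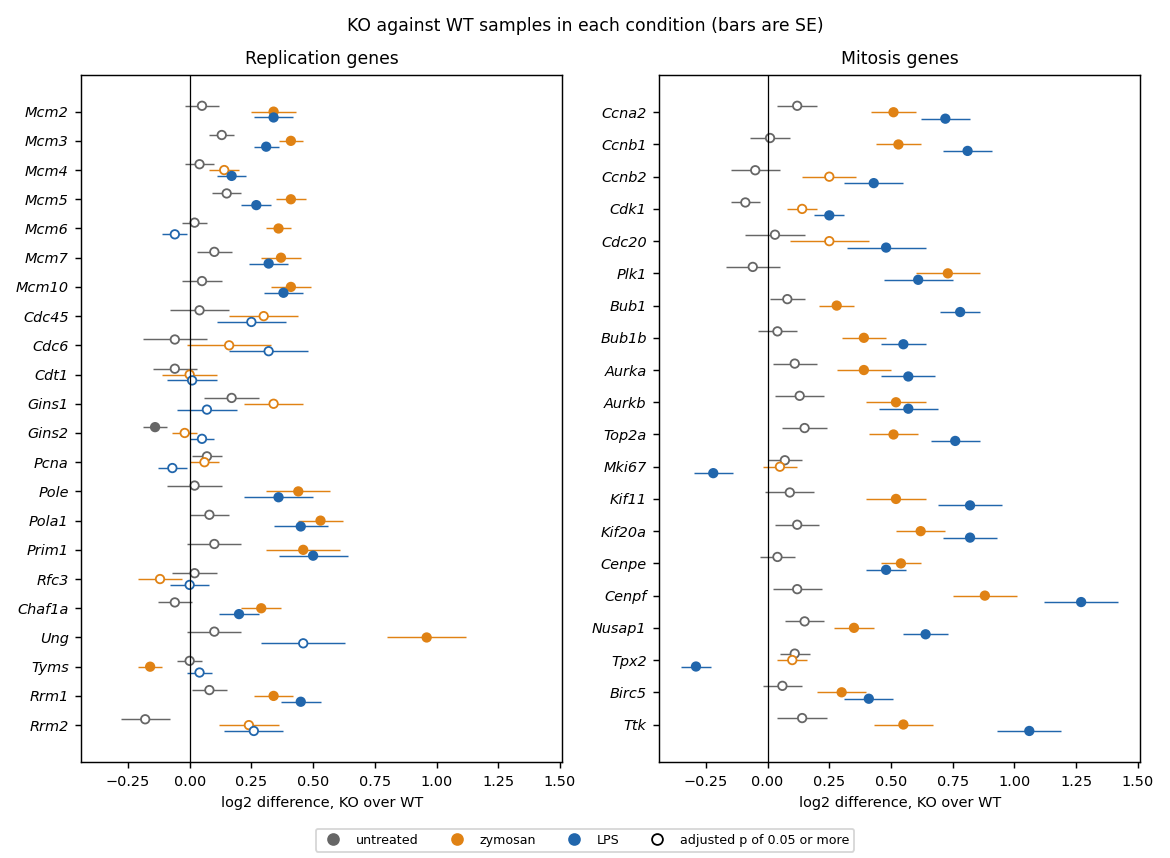
Log2 difference of KO over WT (horizontal axis) for each gene in untreated, Zymosan and LPS samples, with SE bars; filled points passed the edgeR test. Untreated points lie near 0, Zymosan and LPS points lie mostly to the right, and Tpx2 and Mki67 lie to the left with LPS.

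In untreated cells the genotypes had close levels of these genes. No mitosis gene was called by edgeR (0 at an unadjusted p under 0.05 in either direction, and 0 with DESeq2), and no replication gene was called higher (2 at an unadjusted p under 0.05, and 0 with DESeq2). Gins2 was called lower in KO samples (-0.14 ± 0.05, adjusted p = 0.0462), and this call ended with summed pairs, within replicates 3 and 4, with no filter on low counts, with only the groups compared and without WT untreated replicate 1 or 4, among other libraries. Medians were 0.05 for replication and 0.08 for mitosis genes, and over all genes 4.31% were called higher and 5.64% lower. The summed level was 658.9 ± 11.2 CPM (SD, n = 4) in KO against 637.2 ± 4.51 CPM in WT samples for replication genes, and 518.0 ± 14.8 against 491.4 ± 30.6 CPM for mitosis genes. A p that misses the threshold does not show equal levels. For Cenpf, the gene with the largest difference after LPS, the untreated difference was 0.12 ± 0.10.

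After Zymosan 12 of 22 replication genes and 15 of 20 mitosis genes were higher in KO than in WT samples, and 1 replication gene, Tyms, was lower. Medians were 0.34 and 0.45, against 0.00 over all genes, of which 10.6% were called higher and 11.4% lower. Ung was at 0.632, 0.776, 0.622 and 0.579 CPM in WT Zymosan and 1.14, 1.46, 1.08 and 1.39 CPM in KO Zymosan samples, a difference of 0.96 ± 0.16 (edgeR adjusted p = 9.25e-05) with no overlap. Cenpf was at 8.5, 8.8, 6.95 and 6.51 CPM in KO Zymosan samples, all above the WT Zymosan samples, by 0.88 ± 0.13. Plk1 was at 2.35, 3.36, 2.14 and 2.68 CPM in WT and 4.69, 5.37, 4.1 and 3.3 CPM in KO Zymosan samples, a difference of 0.73 ± 0.13, with an overlap of 1 WT and 1 KO sample. Mcm3 and Mcm5 differed by 0.41 ± 0.05 and 0.41 ± 0.06. Tyms, which rose with Zymosan in both genotypes, was at 22.1, 23.0, 23.0 and 23.3 CPM in KO samples, -0.16 ± 0.05 below WT, a call lost with summed pairs (adjusted p = 0.274) and without any 1 of replicates 1 and 2 of either genotype (0.0548 to 0.137).

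In several groups the pairs of replicates differed in these genes more often than in genes at large. In WT Zymosan both of replicates 1 and 2 were above both of replicates 3 and 4 for 14 of 22 replication genes and 12 of 20 mitosis genes, against 28.0% of all genes. In KO Zymosan this held for 16 and 18, against 24.2% of all genes. In WT untreated samples it held for 10 and 12, against 23.3%. In KO untreated samples it held for 6 and 9, against 25.7%, and the 6 replication genes (27.3%) were close to that share. With LPS it held for 5 and 1 in WT samples, against 19.7%, and for 4 and 3 in KO samples, against 30.7%. With each pair summed, 7 replication and 7 mitosis genes were higher in KO than in WT Zymosan samples, and 401 genes over the whole table in place of 1510. Among mitosis genes the calls of Kif11 (adjusted p = 0.0866), Aurkb (0.0904), Top2a (0.058), Nusap1 (0.111), Bub1 (0.13), Bub1b (0.0516), Aurka (0.187) and Birc5 (0.228) ended in that setting.

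After LPS the difference between genotypes was wider in mitosis genes. In KO LPS samples 18 of 20 mitosis genes were higher than in WT LPS samples and 2, Mki67 and Tpx2, were lower, and 11 of 22 replication genes were higher and 0 lower (0 at an unadjusted p under 0.05 and 0 with DESeq2). Medians were 0.59 and 0.26, against 0.01 over all genes, of which 15.6% were called higher and 18.2% lower. Cenpf was at 1.56, 2.44, 1.61 and 1.85 CPM in WT LPS and 4.94, 4.89, 4.47 and 3.63 CPM in KO LPS samples, a difference of 1.27 ± 0.15 (edgeR adjusted p = 5.39e-07). Ttk was at 0.719, 1.15, 0.958 and 0.87 and 1.88, 1.87, 2.17 and 1.86 CPM, a difference of 1.06 ± 0.13 (edgeR adjusted p = 5.21e-07). Neither gene's groups overlapped. Kif11 was at 3.59, 4.2, 4.12 and 4.05 and 6.9, 6.61, 7.33 and 7.48 CPM, and Ccnb1 at 3.77, 3.8, 4.19 and 4.38 and 6.44, 6.49, 7.44 and 8.09 CPM, differences of 0.82 ± 0.13 and 0.81 ± 0.10. Bub1, Top2a and Kif20a differed by 0.78 ± 0.08, 0.76 ± 0.10 and 0.82 ± 0.11. Tpx2, at 16.6, 17.9, 20.7 and 19.7 CPM in KO LPS samples, was lower by -0.29 ± 0.06, and Mki67, at 117.4, 112.1, 110.7 and 110.7 CPM, by -0.22 ± 0.08. The call of Mki67 ended with summed pairs (adjusted p = 0.182), with the nested replicate block (0.14), and without WT LPS replicate 2 (0.0635) or KO LPS replicate 3 (0.0503) or 4 (0.0509).

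Among replication genes after LPS, Prim1, Pola1 and Rrm1 had the largest called differences, 0.50 ± 0.14, 0.45 ± 0.11 and 0.45 ± 0.08. Rrm1 was at 22.6, 19.2, 21.7 and 21.6 CPM in WT and 27.3, 28.2, 30.0 and 31.3 CPM in KO LPS samples. Mcm6, which was higher in KO Zymosan than in WT Zymosan samples, was at 26.0, 26.4, 26.7 and 26.1 CPM in KO LPS samples and did not differ by the test (-0.06 ± 0.05, adjusted p = 0.41). Tyms, Rfc3, Cdt1, Gins2 and Pcna had log2 differences between -0.07 and 0.05 and did not pass. With summed pairs 14 mitosis and 6 replication genes were higher, and 863 genes over the whole table. The calls of Cdc20 (adjusted p = 0.156), Birc5 (0.0668), Cdk1 (0.0708), Ccnb2 (0.0952), Mcm2 (0.0744), Mcm4 (0.264) and Mcm10 (0.0507) ended in that setting. Chaf1a and Pole, at an adjusted p of 0.0452 and 0.0478, lost their calls in several settings, among them summed pairs (0.21 and 0.165) and leaving out WT LPS replicate 4 (0.0895 and 0.132).

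The test of whether the response itself differed between genotypes called fewer genes. For Zymosan 3 replication genes (Mcm3, Mcm6 and Ung) and 4 mitosis genes (Ccnb1, Plk1, Cenpe and Cenpf) had a response less negative in KO than in WT, and none was called the other way (1 replication and 0 mitosis genes at an unadjusted p under 0.05, and 0 with DESeq2). Over all genes 0.973% were called higher and 0.846% lower. For LPS 14 mitosis genes and 1 replication gene, Rrm1 (0.38 ± 0.10), were called with a higher response in KO, and 1 mitosis gene, Tpx2 (-0.40 ± 0.08), with a lower one. Over all genes 4.61% were called higher and 5.84% lower. The largest of these differences were in Cenpf (1.15 ± 0.18, edgeR adjusted p = 0.000385), Ttk (0.92 ± 0.16, 0.000757) and Ccnb1 (0.80 ± 0.13, 0.000386). Leaving out WT Zymosan replicate 1 gave 6 replication and 7 mitosis genes for Zymosan, leaving out KO Zymosan replicate 2 gave 1 and 2, and leaving out WT Zymosan replicate 4 gave 1 replication gene. The LPS call of Aurka (0.46 ± 0.14, adjusted p = 0.0417) ended without any 1 of the 4 WT LPS or 4 KO LPS libraries (0.0508 to 0.0859). With summed pairs the called genes had adjusted p of 0.125 to 0.427 for LPS and of 0.569 to 0.747 for Zymosan, no other member was called, and over all genes tested 3 were called higher and 4 lower for LPS and 0 and 0 for Zymosan. Within replicates 3 and 4 alone 15 mitosis genes were called higher for LPS and 0 for Zymosan, and within replicates 1 and 2 alone 12 and 11. Counts over all genes tested moved between these settings too. For LPS 652 were called higher within replicates 3 and 4 and 1395 within replicates 1 and 2, against 654 with all samples. For Zymosan these counts were 69 and 576, against 138.

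Markers of other cells also differed between the LPS groups, where over all genes 15.6% were called higher and 18.2% lower in KO samples. The summed level of 8 progenitor markers (Kit, Cd34, Mpo and others) was 45.8 to 50.7 CPM in WT LPS and 63.1 to 69.8 CPM in KO LPS samples, and 5 of the 8 were called higher and 1 lower. The 5 mast cell and basophil markers summed to 9.85 to 12.4 and 16.5 to 19.9 CPM, with Mcpt4 at 0 in every sample. Of the 4 tested, 1 was called higher. The 7 neutrophil markers summed to 1263 to 1355 and 1576 to 1768 CPM. Of the neutrophil markers S100a8 and S100a9, which make up most of that sum, were called higher in KO LPS samples, and Ly6g, Ltf and Retnlg were called lower. The 5 macrophage markers summed to 1477 to 1563 CPM in WT LPS and 1155 to 1177 CPM in KO LPS samples, and 4 of the 5 were called lower. The 5 eosinophil markers summed to 795.6 to 856.7 CPM in WT LPS and 20.2 to 25.4 CPM in KO LPS samples. They were as far apart in untreated cells (666.3 to 978.6 and 27.5 to 31 CPM). Of the 5, all were called lower in KO samples after LPS and 4 untreated. Siglecf, most of the KO sum, differed little, with means of 13.9 and 12.3 CPM after LPS and 25.7 and 22.9 CPM untreated. The part of these cells in the results was not tested. Progenitor markers overlapped between genotypes in untreated cells (44.6 to 56.9 and 43.2 to 68.4 CPM) and after Zymosan (46.7 to 58.0 and 44.4 to 67.5 CPM). Untreated, 1 of the 8 was called higher and 1 lower in KO samples, against 4.31% and 5.64% of all genes. With Zymosan 2 were called higher and 1 lower, against 10.6% and 11.4%. Of 5 T cell markers 4 were under 0.1 CPM on average, as were 2 of 3 NK cell and 3 of 4 erythroid markers. The 7 dendritic cell markers summed to 4571 to 4979 CPM in WT LPS and 4836 to 5004 CPM in KO LPS samples. Between these groups 2 of the 7 were called higher and 2 lower in KO.

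Other genes of the same processes were listed by role, also with earlier results of these data known, and most of them fell with both stimuli. Of 11 other genes of origin licensing and firing, 8 fell and 2 rose in WT cells with each stimulus, led by the kinase gene Cdc7 (-1.42 ± 0.10 with Zymosan and -1.77 ± 0.10 with LPS). Of 34 other genes of the replisome and nucleotide supply, 25 fell and 5 rose with Zymosan and 25 fell and 6 rose with LPS. Clspn, the fork protein claspin, and Dut, which destroys dUTP, fell most (-2.27 and -1.74 with Zymosan), while Timeless, a fork protection protein, rose by 1.55 ± 0.07 and 2.43 ± 0.07. Of 39 other mitosis genes, 33 fell and 2 rose with each stimulus, with medians of -1.17 and -1.54. The counts of these lists are to be read against all genes in WT cells. Of those 35.9% were called lower and 34.3% higher with Zymosan, and 39.7% and 35.9% with LPS. Anln and Kif23, of cytokinesis, fell by -1.98 and -1.81 with Zymosan and -2.66 and -2.36 with LPS. Pttg1, securin, which holds back the separation of sister chromosomes until anaphase, rose by 2.94 ± 0.07 and 3.56 ± 0.07. It was at 9.93 to 12 CPM untreated and at 118.9 to 136.7 CPM with LPS. In KO against WT samples 29 of these 39 were higher and 1 lower after LPS, 24 and 2 after Zymosan and 1 and 0 untreated. These calls were not checked with summed pairs. Over all genes 15.6% were called higher and 18.2% lower after LPS, 10.6% and 11.4% after Zymosan and 4.31% and 5.64% untreated.

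**Figure D5:**
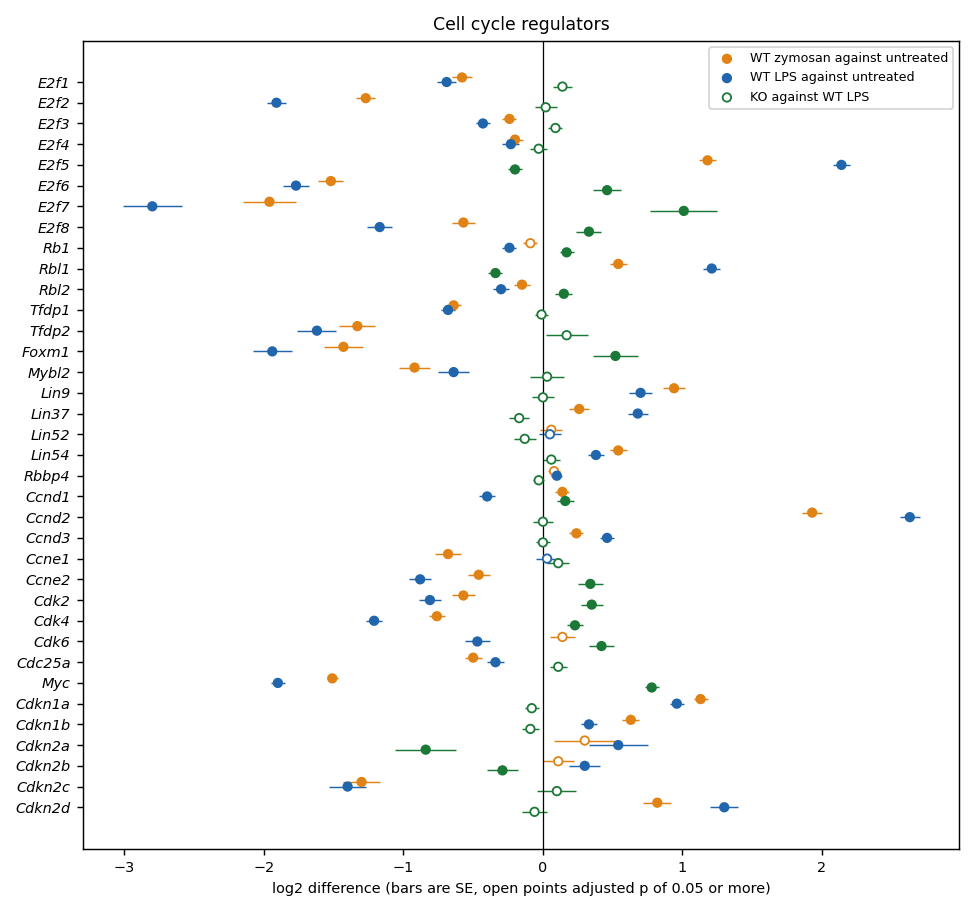
Log2 differences (horizontal axis, with SE bars) of transcriptional and kinase regulators of the cell cycle in WT Zymosan and WT LPS against WT untreated samples and in KO LPS against WT LPS samples; filled points passed the edgeR test. Myc, Foxm1, E2f2 and E2f7 lie to the left under both stimuli and Ccnd2, E2f5 and Cdkn1a to the right.

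The regulator lists below are short, and their counts are to be read against all genes. Of all genes 34.3% were called higher and 35.9% lower with Zymosan, and 35.9% and 39.7% with LPS. Calls of regulators, also those between genotypes, were not checked with summed pairs. Of 13 genes of the E2F and RB family, 10 fell and 2 rose with Zymosan and 11 fell and 2 rose with LPS in WT cells. The activator E2f1 was at 33.9 ± 1.51 CPM untreated, 22.7 ± 1.6 CPM with Zymosan and 21 ± 1.08 CPM with LPS (SD, n = 4), changes of -0.58 ± 0.07 and -0.69 ± 0.07. E2f2 fell by -1.27 and -1.91, and the repressor E2f7 by -1.96 and -2.80. E2f5 and Rbl1, which encodes the pocket protein p107, rose by 1.18 and 0.54 with Zymosan and by 2.14 and 1.21 with LPS. Of 7 genes of FOXM1 and the MuvB complex, 3 rose and 2 fell with Zymosan and 4 rose and 2 fell with LPS: Lin9, Lin54 and Lin37, of the MuvB core, rose with both, and Foxm1 and Mybl2 fell. Foxm1, the activator of mitosis genes, fell from 6.66 ± 0.536 to 2.47 ± 0.268 and 1.72 ± 0.3 CPM. It was higher in KO than in WT samples after LPS by 0.52 ± 0.16 (edgeR adjusted p = 0.0148), with overlap between the groups. Its response to LPS did not differ between genotypes by the edgeR interaction test (0.38 ± 0.20, adjusted p = 0.245). Mybl2 did not differ between genotypes after LPS (0.03 ± 0.12, edgeR adjusted p = 0.852).

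Myc, a growth factor response gene known to drive entry into the cycle, was at 38.7 ± 1.32 CPM in WT untreated, 13.6 ± 0.988 CPM in WT Zymosan and 10.4 ± 0.448 CPM in WT LPS samples. In KO samples it was at 37.4 ± 1.02, 20.3 ± 0.408 and 17.8 ± 0.202 CPM, higher than in WT by 0.58 ± 0.05 after Zymosan and 0.78 ± 0.05 after LPS. Of 10 genes of G1 cyclins, their kinases and Myc, 6 fell and 3 rose with Zymosan and 7 fell and 2 rose with LPS. Ccnd2, cyclin D2, rose by 1.93 ± 0.07 and 2.63 ± 0.07, while its partner kinase Cdk4 fell by -0.76 ± 0.06 and -1.21 ± 0.06. Of 6 genes of CDK inhibitors, 3 rose and 1 fell with Zymosan and 5 rose and 1 fell with LPS. Cdkn1a, p21, rose by 1.13 ± 0.05 and 0.96 ± 0.05 and Cdkn2d, p19, by 0.82 ± 0.10 and 1.30 ± 0.10, and Cdkn2c, p18, fell by -1.30 ± 0.13 and -1.40 ± 0.13. Cdkn1a did not differ by the test between genotypes after LPS (-0.08 ± 0.05, adjusted p = 0.23). Of the 6 inhibitor genes 2 were lower in KO than in WT samples after LPS, Cdkn2a (-0.84 ± 0.22, edgeR adjusted p = 0.00523) and Cdkn2b (-0.29 ± 0.11, 0.0388). In that comparison 18.2% of all genes were called lower and 15.6% higher, so a count from so short a list says little.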

How the data were processed

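RNA of 24 samples was sequenced as mRNA libraries, per the labels' protocols. The deposited table holds 1 whole-number count per gene and sample. The tools named are DESeq2, RSEM 1.2.31 and Bowtie2, with the build mm10, per the submitters' processing notes; their roles, and whether counting used strand, are not given in the sources used here. The plan assumed RSEM expected counts to be rounded, but the deposited counts were whole and were used unchanged. Library totals were 32223256 to 46927434. GENCODE M21 named 37570 of 38887 genes (96.6%).

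All 24 samples entered a single edgeR 4.0.16 quasi-likelihood model (R 4.3.3), 1 mean for each of the 6 groups, after filterByExpr (14188 genes) and TMM scaling (factors 0.88 to 1.19). Calls are at a Benjamini-Hochberg adjusted p under 0.05 over all genes tested. CPM uses TMM-scaled totals, and levels between genes are CPM per kilobase of merged exons. The 42 members, the other lists and the pairs of replicates were chosen with earlier results of these data known. Any member could be named, as could each regulator with a value and up to 3 called genes of the largest change in each other list.

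Alternatives were DESeq2 1.42.0, its size factors, no filter, only the groups compared, a replicate block (shared or nested in genotype), summed pairs, and leaving out each library. The 2 pairs alone were added after seeing the data. Same-numbered samples deviated together in every pair only between untreated and Zymosan samples of the same genotype. Correlations were 0.151 to 0.247 in WT and 0.125 to 0.205 in KO. The same-numbered sample was the best match for 3 replicates in WT and for 1 in KO. Whether the numbers pair these groups is therefore not settled. The fit was tested on simulated data. Intervals of shares are exact (Clopper-Pearson) and cover counting error only.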

Additional observations from a re-analysis of the deposited data

Results flagged for a closer look

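In 10 of 252 groups of 4 samples, 1 library's level lay far from the other 3, and chance alone gives about 1 in 20. Among the helicase genes, Mcm3 was lowest in KO LPS replicate 3 (26.3 CPM, the others 28.4 to 28.6), Mcm6 in KO untreated replicate 3 (44.9 CPM) and Mcm7 in WT LPS replicate 3 (10.6 CPM). Gins2 was highest in KO LPS replicate 4 (39.9 CPM). Pola1, the catalytic subunit of polymerase alpha, was lowest in WT untreated replicate 4 (11.9 CPM, the others 14.3 to 14.8) and in WT LPS replicate 1 (2.28 CPM). Rrm1 was highest in WT Zymosan replicate 1 (28.0 CPM, the others 21.9 to 22.9), and Rrm2 was lowest in KO Zymosan replicate 3 (4.95 CPM, the others 6.68 to 6.81). Of the mitosis genes, Nusap1 was lowest in WT LPS replicate 2 (7.68 CPM) and Ttk highest in KO LPS replicate 3 (2.17 CPM).

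The response to Zymosan differed between genotypes for 7 genes by the edgeR interaction test, each less negative in samples labelled KO. The log2 differences of responses, KO minus WT, were 0.86 in Ung, 0.79 in Plk1, 0.76 in Cenpf, 0.52 in Ccnb1, 0.50 in Cenpe, 0.34 in Mcm6 and 0.28 in Mcm3. All 7 calls ended with pairs of replicates summed and within replicates 3 and 4 alone.

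The response to LPS differed for 16 genes by the same test. Of the replication genes only Rrm1 was called (0.38). Of the kinetochore and checkpoint genes the differences were 1.15 in Cenpf, 0.92 in Ttk, 0.70 in Bub1, 0.51 in Bub1b and 0.43 in Cenpe. Of the cyclins and kinases they were 0.80 in Ccnb1, 0.68 in Plk1, 0.60 in Ccna2, 0.46 in Aurka and 0.34 in Cdk1. Of the spindle and chromosome genes they were 0.73 in Kif11, 0.71 in Kif20a, 0.61 in Top2a and 0.48 in Nusap1. Tpx2 had a difference of -0.40, the single call in the other direction. All 16 calls ended with summed pairs.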

How the results depend on the processing

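No count of members lower with Zymosan or LPS against untreated moved by over 1.5 times, in WT or KO. Some calls ended: of 18 replication genes lower with LPS in KO, 17 were called with DESeq2, with its size factors, with no filter and with summed pairs, and 16 within replicates 3 and 4. With DESeq2, with its size factors, with only the groups compared and within either pair of replicates, 1 mitosis gene (Mki67) was called higher with LPS in WT in place of 0. Summing each pair of replicates moved most counts, since it leaves 2 samples per group. KO over WT then gave 7 replication and 7 mitosis genes higher after Zymosan (12 and 15 before) and 6 replication genes higher and 1 mitosis gene lower after LPS, and 0 replication genes lower untreated or after Zymosan. Summed pairs left 0 calls in each interaction, 2 replication genes lower and 9 mitosis genes higher for Zymosan over LPS in KO, and 1 replication gene higher in WT.

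Within replicates 1 and 2 alone, Zymosan over LPS gave 4 replication genes higher in WT and 6 higher and 3 lower in KO. KO over WT gave 1 replication gene higher untreated and 1 lower after LPS. The Zymosan interaction gave 5 replication genes higher and 1 lower and 11 mitosis genes higher, and the LPS interaction 5 replication genes higher and 1 lower and 2 mitosis genes lower. Within replicates 3 and 4 alone, Zymosan over LPS in KO gave 11 replication genes lower, 5 mitosis genes higher and 1 lower. KO over WT gave 2 mitosis genes higher untreated, 0 replication genes lower untreated or after Zymosan, and 1 mitosis gene lower after Zymosan. The Zymosan interaction gave 0 and 0 higher, and the LPS interaction 2 mitosis genes lower. Of single genes, Tyms in KO over WT after Zymosan was 0.00 and Mki67 -0.17 within replicates 3 and 4, and the Zymosan interaction of Mki67 was 0.31 within replicates 1 and 2, each of the other sign than with all samples; the cause was not tested.

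With replicate number as a block, 1 replication gene was higher in KO untreated and 6 in the LPS interaction. With the block nested in genotype, 7 replication genes were higher in KO after each stimulus and in each interaction, and 1 mitosis gene was lower after LPS. Between Zymosan and untreated samples of the same genotype, the block changed no call of a member but that of Nusap1 in KO. Between other groups, same-numbered samples did not deviate together in every pair. For the LPS interaction DESeq2 gave 2 replication genes higher and 2 mitosis genes lower, and a model of only the groups compared gave 4 and 2. With no filter, or with only the groups compared, 0 replication genes were lower in KO untreated or after Zymosan.

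For Zymosan over LPS, leaving out 1 library gave 2 to 3 replication genes higher in WT, and in KO 4 to 8 lower and 12 to 14 mitosis genes higher. For KO over WT it gave 10 to 16 replication and 13 to 17 mitosis genes higher after Zymosan, and 8 to 11 and 17 to 18 after LPS. It left 13 to 16 mitosis genes higher in the LPS interaction. Leaving out 1 library also gave 0 to 1 mitosis genes higher with LPS in WT and 3 to 5 replication genes higher for Zymosan over LPS in KO. It gave 0 to 1 replication genes lower in KO untreated and after Zymosan, and 1 to 2 mitosis genes lower after LPS. In the Zymosan interaction it gave 1 to 6 replication and 2 to 7 mitosis genes higher, and in the LPS interaction 1 to 3 replication genes higher and 1 to 2 mitosis genes lower. Low counts limit Ung and Ttk most, at 20 and 24 counts in their lowest samples.

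Over all genes tested, summed pairs called 863 higher and 1152 lower in KO after LPS (2220 and 2585 with single samples), 401 and 585 after Zymosan (1510 and 1624) and 120 and 293 untreated (611 and 800). For Zymosan over LPS they called 2303 and 2017 in WT (3481 and 3106) and 1990 and 1653 in KO (3227 and 2832). The LPS interaction called 654 higher and 828 lower, against 1040 and 1356 with the block, 1073 and 1482 with the nested block, 1395 and 1589 within replicates 1 and 2 and 3 and 4 with summed pairs. The Zymosan interaction called 138 and 120, against 226 and 197 with DESeq2, 266 and 240 with the block, 292 and 298 with the nested block, 576 and 659 within replicates 1 and 2, and 0 and 0 with summed pairs, with 69 higher within replicates 3 and 4 and 47 lower with only the groups compared. Within replicates 1 and 2, KO over WT called 1583 and 1684 untreated and 2523 lower after Zymosan.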

Other observations

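Of 19 other genes of checkpoints and p53 targets, 7 rose and 9 fell with Zymosan in WT cells and 5 rose and 12 fell with LPS, where over all genes 34.3% rose and 35.9% fell with Zymosan and 35.9% and 39.7% with LPS. Gadd45b, a stress response gene, rose by 2.13 ± 0.07 with Zymosan and 2.96 ± 0.08 with LPS (log2 ± SE over 4 samples a group, edgeR adjusted p = 2.16e-18 and 2.3e-21). Brca2, of homologous recombination, fell by -1.70 ± 0.20 and -1.99 ± 0.21 (edgeR adjusted p = 5.34e-08 and 5.02e-09), and Chek2, a DNA damage kinase, by -1.58 ± 0.09 and -1.92 ± 0.10 (8.79e-14 and 1.86e-15). Chek2 was higher in KO than in WT samples by 0.40 ± 0.10 after Zymosan and 0.69 ± 0.11 after LPS (edgeR adjusted p = 0.00613 and 1.9e-05). Neither call was checked with summed pairs.

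In KO LPS samples replicates 1 and 2 were both below replicates 3 and 4 for 10 of 20 mitosis genes, against 30.4% of all genes, and both above for 3. In KO Zymosan samples they were both above for 18 and both below for 1.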
